A study of Mus musculus with 6 samples.

Results

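The genes of vascular endothelial growth factor (VEGF) and angiopoietin signalling were compared between immortalized wildtype (WT) and Alport syndrome (AS) podocytes. The 10 genes are the ligands Vegfa, Vegfb, Vegfc and Vegfd, the receptor tyrosine kinases Flt1 and Kdr, the co-receptors Nrp1 and Nrp2, and the angiopoietins Angpt1 and Angpt2. They were taken by name from the 57132 genes of the count table, as a list chosen with earlier results of these data known. Podocytes are the main source of VEGF-A in the kidney glomerulus, where it acts on the endothelial cells across the glomerular basement membrane. VEGF-A signals through the receptor tyrosine kinase encoded by Kdr, while the Flt1 product binds VEGF-A, VEGF-B and placental growth factor, also as a soluble decoy. Angiopoietin 1 activates the endothelial receptor encoded by Tek, and angiopoietin 2 is known mostly as its context-dependent antagonist.

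RNA came from 3 samples of the WT line (Col4a3+/+) and 3 samples of the AS line (Col4a3-/-), both described as kidney podocytes of adult male mice of 8 weeks and given no treatment. According to the study's methods, the lines were made by crossing Col4a3 knockout mice with mice that carry the H-2Kb-tsA58 transgene, a temperature-sensitive T antigen under an interferon-inducible promoter. The sample records give growth at 33 °C with 20 U/mL interferon gamma and differentiation at 37 °C for 14 days, while the study's methods give other values for the medium, the interferon and the time. Each genotype is 1 cell line, so genotype and line cannot be told apart, and it is not stated whether the numbered sets of a line are separate cultures. P-values therefore measure the spread between these samples, which may be technical. Expression is given as CPM, the usual unit of counts relative to library size, here scaled by TMM (trimmed mean of M values).

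The libraries held between 45417221 and 54290968 counts. Col4a3, the gene knocked out in the AS line, was at 1087 ± 169.8 CPM in the WT line and 68.8 ± 12.2 CPM in the AS line (SD, n = 3 each), in the direction the labels give. WT replicate 1 stood apart from the other WT replicates, with a chi-square per degree of freedom of 47.5 and 49.9 against them. The other WT replicates differed from each other by 9.78, and the pairs of AS replicates by 22.4, 18.8 and 19.6. Of the 14 podocyte markers, 2 had 0 counts in every sample, among them Tcf21, which allows up to 0.0209 CPM in the WT line and 0.0198 CPM in the AS line (3 counts over a group, counting error only). Nphs1 was at 0.466 ± 0.00969 CPM in the WT line and 0.0407 ± 0.0390 CPM in the AS line, whereas Synpo was at 803 ± 44.2 and 526 ± 30.8 CPM (SD, n = 3 each). Of the 11 podocyte markers tested, 3 were higher and 7 lower in AS podocytes (edgeR, adjusted p below 0.05). Of all genes tested, 20.4% were higher and 19.6% lower, and the counts of the marker lists that follow stand against these shares. The transcription factor Wt1 fell from 20.6 ± 5.28 to 2.50 ± 0.928 CPM, while the transcription factor Lmx1b was higher, at 0.724 ± 0.235 against 7.69 ± 0.548 CPM (SD, n = 3 each). The mesangial and smooth muscle list had 0 of 8 tested markers higher and 4 lower (Pdgfrb, Tagln, Cnn1 and Myh11), and its summed level ran from 10239.8 to 12771.8 CPM in WT and from 9230.8 to 10841.4 CPM in AS samples. Of 3 tubular markers tested, Cdh16 was higher at a log2 fold change of 1.49 and 0 were lower, with Umod and Aqp2 at 0 counts in every sample. The tubular list summed to between 322 and 382 CPM in WT and between 378 and 527 CPM in AS samples. Of 3 leukocyte markers tested, 0 were higher and Csf1r was lower at -1.43, with Adgre1 at 0 counts in every sample, and the list summed to between 11.2 and 15.0 CPM in WT and between 5.11 and 7.02 CPM in AS samples. The part of other cell types in the results was not tested, and in such bulk samples fewer cells of a type and less RNA per cell cannot be told apart.

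All 10 genes passed the filter on low counts, and 8 of them differed between the lines (adjusted p below 0.05, edgeR quasi-likelihood test with Benjamini-Hochberg adjustment), against 40.1% of all genes tested. Vegfb, Vegfd, Nrp1, Nrp2 and Angpt1 were higher in AS podocytes, a direction called in 20.4% of all genes. Flt1, Kdr and Angpt2 were lower, a direction called in 19.6% of all genes. Vegfa and Vegfc did not pass. The WT and AS samples did not overlap in 7 of the 10 genes, a property of 52.3% of all genes tested. The median absolute log2 fold change was 1.01 over the 10 genes and 0.28 over all genes tested, while the signed medians were 0.14 and 0.0061. The plot of CPM by sample shows the size of these differences against the spread within each line.

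**Figure D1:**
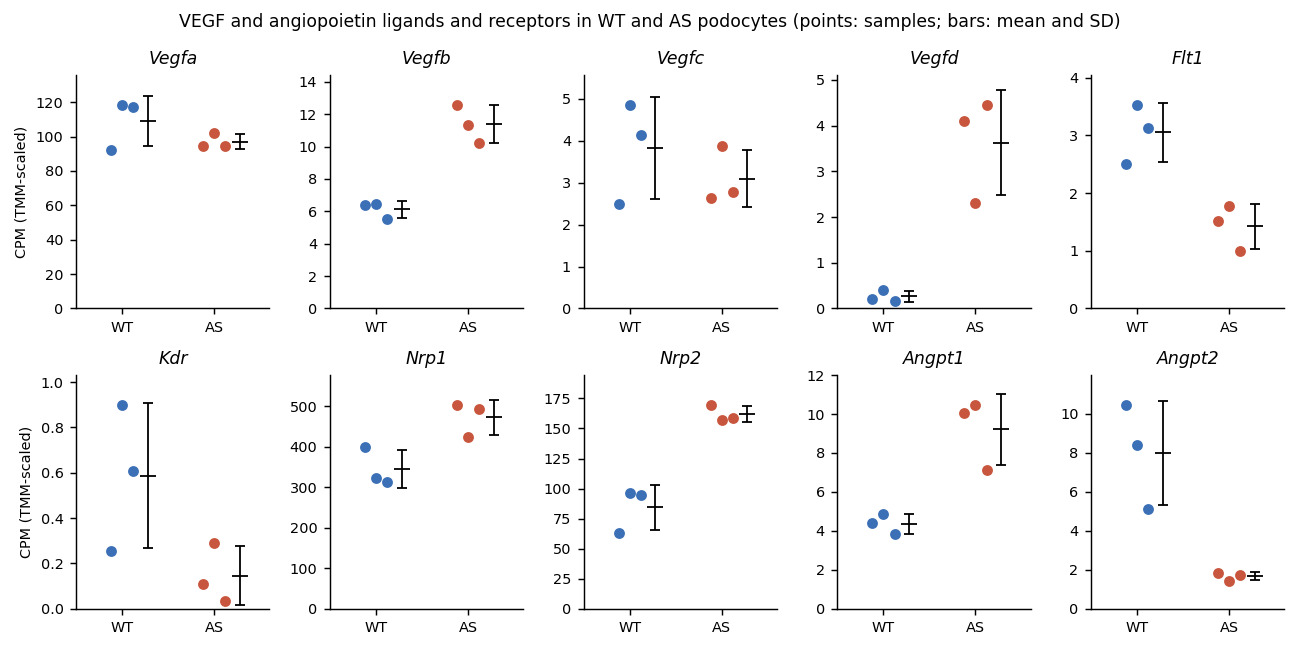
CPM (TMM-scaled, vertical axes from 0) of the 10 genes in the 3 WT (blue) and 3 AS (red) samples, with the mean and SD of each line as black bars. The samples of the lines do not overlap for Vegfb, Vegfd, Flt1, Nrp1, Nrp2, Angpt1 and Angpt2, and they overlap for Vegfa, Vegfc and Kdr.

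Vegfa encodes the main VEGF ligand of podocytes. In the order of replicates 1 to 3, used for all values by sample, it was at 92.3, 118 and 117 CPM in WT samples and at 94.3, 102 and 94.6 CPM in AS samples. The lines overlapped, since WT replicate 1 lay below every AS sample while the other WT samples lay above. The log2 fold change of AS over WT was -0.17 (SE 0.09, edgeR adjusted p = 0.171), a level 0.888 times that of WT. Without WT replicate 1 the log2 fold change was -0.28 and passed the test (edgeR adjusted p = 0.00277), so that this call depends on that library. The genes whose log2 CPM followed that of Vegfa most closely over the 6 samples were Rps3 and Rpl32, with Pearson's r of 0.998 and 0.995 among 9155 genes compared. These values are a description across 6 samples of 2 lines that share library and depth effects.

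Vegfb encodes a ligand that binds the Flt1 product and not that of Kdr. Its CPM was 6.37, 6.45 and 5.53 in WT samples and 12.6, 11.4 and 10.2 in AS samples. Every AS sample lay above every WT sample, a 1.86-fold difference (log2 fold change 0.90 ± 0.12 SE, edgeR adjusted p = 0.000400). Vegfb lies on chromosome 19, whose genes were higher in AS podocytes with a median log2 fold change of 0.17 relative to all chromosomes. With that median removed, the log2 fold change of Vegfb was 0.72 (edgeR adjusted p = 0.00169).

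Vegfc and Vegfd encode ligands of the lymphangiogenic branch, whose main receptor is encoded by Flt4. Vegfc was at 2.49, 4.85 and 4.14 CPM in WT samples and at 2.64, 3.87 and 2.78 CPM in AS samples. The samples overlapped, and the log2 fold change of -0.30 (SE 0.26, edgeR adjusted p = 0.393) did not pass. Vegfd was at 0.217, 0.406 and 0.173 CPM in WT samples and at 4.11, 2.32 and 4.45 CPM in AS samples. All AS samples lay above all WT samples, and the 13.6-fold difference was the largest among the 10 genes (log2 fold change 3.76 ± 0.38 SE, edgeR adjusted p = 5.84e-05). The WT value rests on 38 counts over 3 samples and the AS value on 549. Leaving out each sample in turn kept the log2 fold change of Vegfd between 3.54 and 4.19. Pgf, which encodes placental growth factor and was not among the 10 genes, was at 0.602 ± 0.132 CPM in the WT line and 2.83 ± 0.04996 CPM in the AS line (SD, n = 3 each), a 4.67-fold difference (log2 fold change 2.22 ± 0.23 SE, edgeR adjusted p = 7.47e-05).

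Levels of different genes were compared as RPKM, that is CPM divided by the length in kilobases of the exons annotated in GENCODE M21. In WT podocytes Nrp1 was highest at 35.2 ± 4.83 RPKM, followed by Vegfa at 25.5 ± 3.42, Nrp2 at 7.14 ± 1.58 and Vegfb at 3.81 ± 0.319 RPKM (SD, n = 3 each). Angpt2 at 2.17 ± 0.728 and Vegfc at 1.56 ± 0.495 RPKM overlapped between samples and were followed by Angpt1 at 0.838 ± 0.0975 RPKM. Flt1 was at 0.226 ± 0.0380 RPKM, and Vegfd at 0.110 ± 0.0513 and Kdr at 0.0650 ± 0.0355 RPKM overlapped at the end of the order. In AS podocytes the first 4 places were the same, with Nrp1 at 48.3 ± 4.40, Vegfa at 22.6 ± 1.02, Nrp2 at 13.7 ± 0.556 and Vegfb at 7.10 ± 0.722 RPKM (SD, n = 3 each). Angpt1 at 1.77 ± 0.347, Vegfd at 1.51 ± 0.476 and Vegfc at 1.26 ± 0.275 RPKM came next, each overlapping its neighbour, and Angpt2 at 0.452 ± 0.0562, Flt1 at 0.106 ± 0.0290 and Kdr at 0.0162 ± 0.0145 RPKM came last without overlap.

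Among the 5 VEGF family ligands (Vegfa, Vegfb, Vegfc, Vegfd and Pgf), Vegfa held 81.7 ± 1.74% of the summed RPKM in the WT line and 67.6 ± 1.88% in the AS line (SD, n = 3 each). The share of Vegfb was 12.4 ± 2.17% in the WT line and 21.2 ± 1.88% in the AS line, and that of Vegfd was 0.351 ± 0.138% and 4.53 ± 1.53%. The summed level of the 5 ligands was 26.8, 34.0 and 32.7 RPKM in WT samples and 33.6, 34.4 and 32.4 RPKM in AS samples, which overlapped. The Vegfa level was 6.74 ± 1.26 times that of Vegfb in WT and 3.21 ± 0.348 times in AS podocytes, both per length (SD, n = 3 each). The log2 ratio of their CPM differed by -1.06 between AS and WT podocytes, and the samples did not overlap. The exact permutation test (two-sided) gave p = 0.10, the smallest that 3 against 3 samples allow, and 0.10 after adjustment over the 3 ratios tested.

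**Figure D2:**
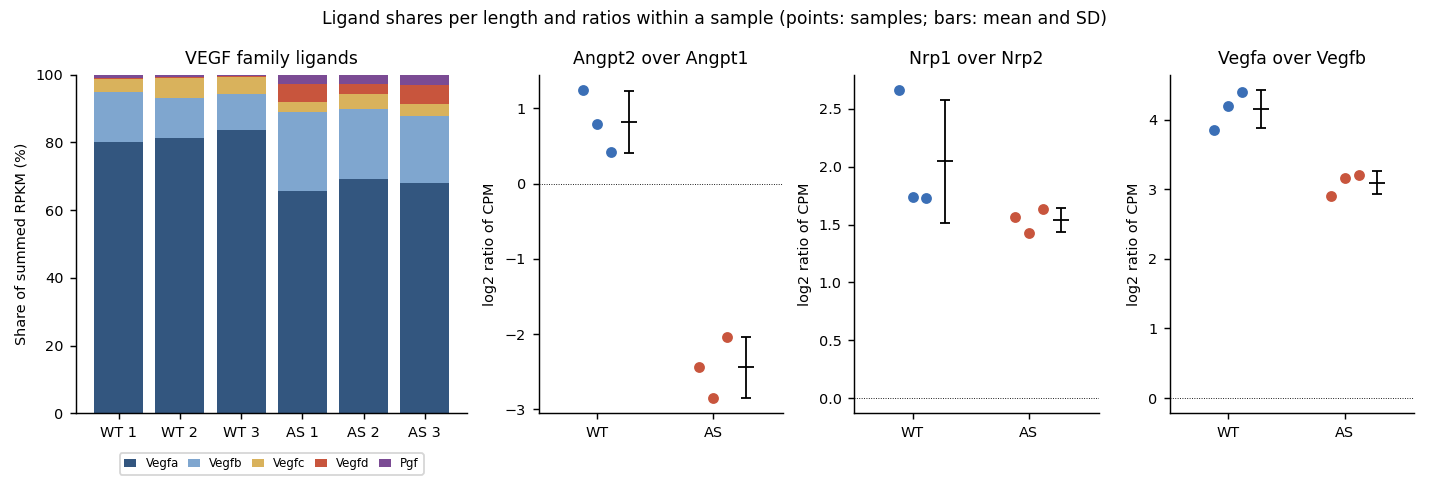
The first panel gives the share of each of 5 VEGF family ligands in their summed RPKM (%, stacked to 100) in each sample, and the others give log2 ratios of CPM within a sample (points) for WT (blue) and AS (red), with the mean and SD as black bars. The Vegfa share is 81.7% in the WT line and 67.6% in the AS line, and the Angpt2 over Angpt1 ratio lies above 0 in the 3 WT samples and below 0 in the 3 AS samples.

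Flt1 and Kdr, the receptor tyrosine kinases for VEGF-A, were expressed at low levels and were lower in AS podocytes. Flt1 was at 2.50, 3.53 and 3.12 CPM in WT samples and at 1.51, 1.77 and 0.999 CPM in AS samples. The AS samples were all below the WT samples, with 0.467 times the WT level (log2 fold change -1.10 ± 0.25 SE, edgeR adjusted p = 0.00654). Counts per gene do not separate the membrane-bound from the soluble form of the Flt1 product. Kdr was at 0.256, 0.897 and 0.607 CPM in WT samples and at 0.111, 0.292 and 0.0363 CPM in AS samples, from counts of 13, 42 and 28 against 5, 15 and 2. WT replicate 1 and AS replicate 2 overlapped, and the log2 fold change of -1.98 (SE 0.69, edgeR adjusted p = 0.0441) was close to the threshold. Kdr did not pass without WT replicate 2, WT replicate 3, AS replicate 1 or AS replicate 3, with an adjusted p of up to 0.167 (edgeR), and it passed without the other samples.

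Flt4, the receptor for VEGF-C and VEGF-D, was also lower in AS podocytes, at 4.54 ± 1.39 CPM in the WT line and 2.01 ± 0.247 CPM in the AS line (SD, n = 3 each). The log2 fold change of Flt4 was -1.17 (SE 0.25, edgeR adjusted p = 0.00449). The summed level of the 3 kinases was 0.571, 1.01 and 0.949 RPKM in WT samples and 0.351, 0.442 and 0.305 RPKM in AS samples, and the lines did not overlap. Flt1 and Kdr lie on chromosome 5, whose median log2 fold change was 0.19 in the opposite direction. With it removed, the log2 fold change was -1.28 for Flt1 and -2.17 for Kdr (edgeR adjusted p = 0.00357 and 0.0363).

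These receptors are best known from endothelial cells, so endothelial markers were read in the same libraries. Of the 11 markers 5 passed the filter on low counts, of which 0 were higher and 2 lower in AS podocytes. Cldn5 had 0 counts in every sample, Pecam1 was at 0.164 ± 0.0997 CPM in the WT line and 0.126 ± 0.0872 CPM in the AS line, and Cdh5 was at 0.0431 ± 0.0434 and 0.0130 ± 0.0225 CPM (SD, n = 3 each). The summed level of the 11 markers ran from 52.9 to 63.6 CPM in WT and from 40.0 to 46.1 CPM in AS samples. Most of it was Ehd3, at 48.6 ± 4.05 and 40.6 ± 2.87 CPM (SD, n = 3 each), whose lower level did not pass without WT replicate 2, WT replicate 3, AS replicate 2 or AS replicate 3. Without Ehd3 and Erg the other 9 markers summed to between 1.79 and 2.82 CPM in WT and between 1.61 and 2.07 CPM in AS samples. Erg, a transcription factor of the ETS family, fell from 8.76 ± 1.44 CPM in WT to 1.10 ± 0.304 CPM in AS podocytes (SD, n = 3 each; log2 fold change -3.01 ± 0.22 SE, edgeR adjusted p = 8.91e-06). Its part in the lower receptor levels was not tested.

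Promoter sequences are shown for the 2 receptors that were lower, for the ligand with the largest increase and for Vegfa, whose level did not pass the test. They are the 250 bases before an annotated start (for Vegfa the first of 2) from RefSeq (GRCm38.p6). They read 5′ to 3′ on the strand of the gene. Capitals mark matches on either strand to GGAAGT, a longer form of the ETS core, or to the GC box GGGCGG. Flt1 lies at chr5:147726012-147726261 and Kdr at chr5:75978456-75978705, both on the minus strand. Vegfd lies at chrX:164373272-164373521 on the plus strand and Vegfa at chr17:46032378-46032627 on the minus strand.
Flt1: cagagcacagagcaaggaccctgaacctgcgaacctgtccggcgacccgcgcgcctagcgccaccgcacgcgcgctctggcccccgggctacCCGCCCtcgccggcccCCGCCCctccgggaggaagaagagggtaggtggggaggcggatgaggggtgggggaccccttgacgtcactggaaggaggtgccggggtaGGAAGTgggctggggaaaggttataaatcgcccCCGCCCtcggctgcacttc
Kdr: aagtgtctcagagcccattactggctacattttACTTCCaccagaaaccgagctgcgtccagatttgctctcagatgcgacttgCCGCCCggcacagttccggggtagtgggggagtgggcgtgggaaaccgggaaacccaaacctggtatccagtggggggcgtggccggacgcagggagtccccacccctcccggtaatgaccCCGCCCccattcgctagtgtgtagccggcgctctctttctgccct
Vegfd: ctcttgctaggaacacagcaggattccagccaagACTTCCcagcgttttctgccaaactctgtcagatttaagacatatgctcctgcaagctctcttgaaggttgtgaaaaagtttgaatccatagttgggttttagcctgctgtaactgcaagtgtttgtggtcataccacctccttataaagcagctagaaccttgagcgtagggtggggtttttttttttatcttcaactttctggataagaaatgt
Vegfa: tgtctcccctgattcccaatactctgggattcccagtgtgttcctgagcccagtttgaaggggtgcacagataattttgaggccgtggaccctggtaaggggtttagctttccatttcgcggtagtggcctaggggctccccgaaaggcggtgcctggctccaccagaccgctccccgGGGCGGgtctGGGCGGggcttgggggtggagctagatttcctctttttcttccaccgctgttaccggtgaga
The sequence GGAAGT was found in the promoters of Flt1, Kdr and Vegfd, beginning 52, 217 and 216 bases before the start, and not in that of Vegfa. Of all 32851 promoters of the same length, 19.7% hold it. Among the 8 genes with an entry it was in Flt1 and Kdr, which were lower in AS podocytes, and in Vegfd, which was higher. It was not in the windows of Vegfb, Nrp1 and Nrp2, which were higher, nor in those of Vegfa and Vegfc, which did not pass. The shorter ETS core GGAA was not searched, and it stands on the other strand (as ttcc) in the Vegfa window shown. These genes are thus told apart by GGAAGT only, not by the ETS core. The GC box was found 3 times in Flt1, 2 times in Kdr, 2 times in Vegfa and 0 times in Vegfd, and in 32.7% of all promoters. ACGTG, a form of the core of the hypoxia response element, was found in none of these 4 windows and in 16.6% of all promoters. Its absence says only that these letters are not in this stretch. The other form, GCGTG, was not searched, and it stands in the Kdr window shown and on the other strand (as cacgc) in that of Flt1. The window before the other Vegfa start, at chr17:46025164-46025413 on the minus strand, held ACGTG 1 time, 211 bases before that start. It also held 1 GC box and no GGAAGT. This window lies downstream of the first start, within the gene. The bases after its start were found in none of the M21 transcripts of Vegfa, and whether it acts as a promoter was not tested. The promoter of Vegfd held 42.4% G and C bases, against 59.2% for Vegfa, 61.6% for Kdr, 70.4% for Flt1 and a median of 52.4% over all promoters. The motifs were chosen after the values were seen, and a match is a description of the sequence. The windows were printed with the matches known. Angpt1 and Angpt2 had no entry.

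Nrp1 and Nrp2 encode neuropilins, co-receptors that bind VEGF and class 3 semaphorins. Nrp1 was at 399, 322 and 313 CPM in WT samples and at 502, 423 and 492 CPM in AS samples. Every AS sample lay above every WT sample, by 1.37-fold (log2 fold change 0.45 ± 0.10 SE, edgeR adjusted p = 0.00663). Nrp1 lies on chromosome 8, whose genes had a median log2 fold change of 0.31 relative to all chromosomes. With that median removed, the log2 fold change of Nrp1 was 0.15 and did not pass (edgeR adjusted p = 0.316). Nrp2 was at 62.9, 96.3 and 94.2 CPM in WT samples and at 169, 157 and 159 CPM in AS samples. The samples did not overlap, and Nrp2 was 1.91-fold higher in AS podocytes (log2 fold change 0.94 ± 0.14 SE, edgeR adjusted p = 0.000620). On its chromosome 1 the median was -0.027, and the log2 fold change of Nrp2 was 0.96 with it removed.

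The Nrp1 level per length was 7.67, 4.04 and 4.02 times that of Nrp2 in WT samples and 3.59, 3.26 and 3.75 times in AS samples. WT replicate 1 was far above the other samples. The log2 ratio of CPM differed by -0.50 between the lines (exact permutation test, two-sided, p = 0.10, the smallest possible), and by -0.19 without WT replicate 1. The neuropilins held nearly all of the summed RPKM of the 5 VEGF receptors and co-receptors, with 81.3 ± 5.28% for Nrp1 and 16.7 ± 4.62% for Nrp2 in WT podocytes. In AS podocytes the shares were 77.4 ± 1.36% and 21.98 ± 1.20% (SD, n = 3 each).

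Class 3 semaphorins are secreted guidance ligands, most of which act through neuropilins, and plexins of the A class and Plxnd1 are their signalling partners. Of the 7 semaphorins tested, 3 were higher, 1 was lower and 3 did not pass, and the counts of this and the other lists stand against the 40.1% of all genes that passed. Sema3a, a ligand of the Nrp1 product, was at 52.5 ± 10.9 CPM in the WT line and 139.8 ± 12.5 CPM in the AS line (SD, n = 3 each; log2 fold change 1.41, edgeR adjusted p = 4.41e-05). Sema3c was at 71.7 ± 13.8 and 206 ± 24.4 CPM (log2 fold change 1.52, edgeR adjusted p = 3.30e-05). Sema3f, a ligand of the Nrp2 product, was at 171 ± 1.23 and 258 ± 2.68 CPM (log2 fold change 0.59, edgeR adjusted p = 2.00e-05). Sema3e, which binds the Plxnd1 product without a neuropilin, fell from 273 ± 9.77 to 137 ± 21.04 CPM (log2 fold change -0.998, edgeR adjusted p = 6.78e-05). Sema3b was at 9.91 ± 0.732 and 11.1 ± 1.07 CPM, Sema3d at 52.1 ± 7.06 and 50.1 ± 9.99 CPM, and Sema3g at 1.47 ± 0.514 and 0.816 ± 0.187 CPM in WT and AS podocytes (SD, n = 3 each).

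Of the 5 plexins, Plxna3 was higher at 30.4 ± 1.57 against 47.2 ± 3.62 CPM (log2 fold change 0.64, edgeR adjusted p = 0.000166), and Plxna1 at 724 ± 17.3 against 875 ± 72.9 CPM (log2 fold change 0.27, edgeR adjusted p = 0.0148; SD, n = 3 each). The call of Plxna1 was lost when WT replicate 3, AS replicate 1 or AS replicate 3 was left out. Plxna4 fell from 19.2 ± 0.439 to 9.68 ± 2.33 CPM (log2 fold change -0.99, edgeR adjusted p = 0.000913). Plxnd1 fell from 38.9 ± 2.01 to 20.95 ± 1.40 CPM (log2 fold change -0.89, edgeR adjusted p = 1.93e-05), so that the semaphorin 3E ligand and its receptor were both lower in AS podocytes. Plxna2 was at 60.7 ± 10.1 and 74.2 ± 5.55 CPM and did not pass (log2 fold change 0.29, edgeR adjusted p = 0.0609). Plxna2 did pass with library size only, with no filter, with DESeq2, with the replicate block and without WT replicate 1. The median log2 fold change was 0.16 over the semaphorins and 0.27 over the plexins, against 0.0061 over all genes tested.

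The angiopoietins moved in opposite directions. Angpt1 was at 4.40, 4.85 and 3.84 CPM in WT samples and at 10.1, 10.4 and 7.14 CPM in AS samples. Every AS sample lay above every WT sample, by 2.11-fold (log2 fold change 1.08 ± 0.17 SE, edgeR adjusted p = 0.000972). Angpt1 shares 737 of its 5205 exonic bases with the antisense gene Gm17473, which had 0.00712 CPM in the WT line and 0.0296 CPM in the AS line, and whether reads were counted by strand is not stated. Angpt2 was at 10.4, 8.42 and 5.12 CPM in WT samples and at 1.84, 1.44 and 1.73 CPM in AS samples. The AS samples were all below the WT samples, with 0.209 times the WT level (log2 fold change -2.26 ± 0.26 SE, edgeR adjusted p = 0.000137). With the medians of chromosomes 15 and 8 removed, the log2 fold change was 0.89 for Angpt1 and -2.57 for Angpt2 (edgeR adjusted p = 0.00344 and 7.09e-05).

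Per length, Angpt2 was at 3.35, 2.45 and 1.88 times the level of Angpt1 in WT samples and at 0.258, 0.194 and 0.341 times in AS samples. The order of the 2 ligands was thus opposite in the lines in every sample. The log2 ratio of CPM differed by -3.26 between AS and WT podocytes (exact permutation test, two-sided, p = 0.10, the smallest possible), and by between -3.46 and -3.05 with each sample left out. Angpt4, a further ligand of the Tek product, was at 9.38 ± 2.46 CPM in the WT line and 6.04 ± 0.280 CPM in the AS line (SD, n = 3 each; log2 fold change -0.63, edgeR adjusted p = 0.0232). That call was lost in every fit that left out 1 sample except the fit without WT replicate 1, with an adjusted p of up to 0.0831 (edgeR). Angpt4 held 56.9 ± 12.9% of the summed RPKM of the 3 angiopoietins in the WT line and 53.9 ± 4.62% in the AS line, while Angpt1 held 11.95 ± 1.11% and 36.6 ± 5.63%, and Angpt2 31.1 ± 11.8% and 9.42 ± 1.22% (SD, n = 3 each).

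The angiopoietin receptors were hardly measured. Tek had 19 counts over the WT samples and 10 over the AS samples and did not pass the filter, and Tie1 had 0 counts in every sample. Ptprb encodes a receptor-type phosphatase that acts on the Tek product, and it fell from 5.86 ± 0.750 CPM in WT to 1.86 ± 0.102 CPM in AS podocytes (SD, n = 3 each; log2 fold change -1.65 ± 0.16 SE, edgeR adjusted p = 5.08e-05). Of the 6 further ligands and receptors of both families, 4 were tested, of which Pgf was higher and Flt4, Angpt4 and Ptprb were lower. The plot of log2 fold changes sets these genes beside the first 10, with and without the median of each chromosome.

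**Figure D3:**
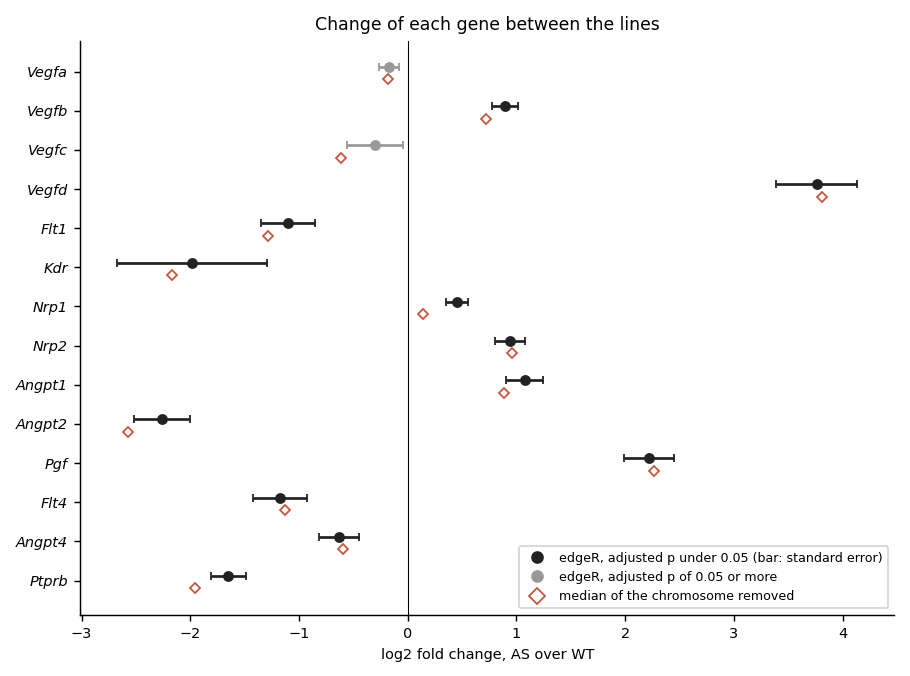
Log2 fold change of AS over WT (horizontal axis) of the 10 genes and of Pgf, Flt4, Angpt4 and Ptprb, from edgeR (circles, bars give the standard error, grey where the adjusted p was 0.05 or more) and with the median of each chromosome removed (open diamonds). Nrp1 moves from 0.45 to 0.15 when the median of chromosome 8 is removed, and no gene changes its direction.

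The oxygen-sensing genes control VEGF-A in many cells, since hypoxia-inducible factors (HIF) bind the Vegfa gene. Of 8 such genes tested, 2 were higher, 1 was lower and 5 did not pass, with a median log2 fold change of 0.15. Epas1, which encodes HIF-2 alpha, fell from 27.9 ± 5.82 CPM in WT to 6.17 ± 0.371 CPM in AS podocytes (SD, n = 3 each; log2 fold change -2.18 ± 0.15 SE, edgeR adjusted p = 5.87e-06). Egln1, an oxygen-dependent prolyl hydroxylase, was higher (log2 fold change 0.40, edgeR adjusted p = 0.00185), but not with the median of its chromosome 8 removed (0.10, edgeR adjusted p = 0.346). Hif1an was at 0.16 (edgeR adjusted p = 0.0475), and its direction flipped to -0.014 with the chromosome median removed. Of the 6 fits that left out a sample, Hif1an passed in that without WT replicate 1 alone. Hif1a itself was at 127 ± 13.2 and 141 ± 8.07 CPM (SD, n = 3 each). The log2 fold change of 0.14 did not pass (edgeR adjusted p = 0.189), and Hif1a was added to the text after its value was seen.

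Genes that HIF is known to induce moved in both directions. Of 13 tested, 5 were higher, 3 were lower and 5 did not pass, with a median log2 fold change of 0.061. Adm, which encodes the vasoactive peptide adrenomedullin, was at 5.46 ± 1.85 CPM in the WT line and 19.2 ± 2.48 CPM in the AS line (SD, n = 3 each; log2 fold change 1.81, edgeR adjusted p = 0.000176). Ddit4, an inhibitor of mTOR signalling, was higher at a log2 fold change of 0.69 (edgeR adjusted p = 4.53e-05), and so was Pdk1, a kinase of pyruvate dehydrogenase, at 0.59 (edgeR adjusted p = 0.000619). Slc2a1, the glucose transporter GLUT1, fell from 70.6 ± 3.45 to 46.2 ± 4.32 CPM (SD, n = 3 each; log2 fold change -0.61, edgeR adjusted p = 0.000238). The others that passed, named after their values were seen, were Ankrd37 at 1.24, Ndrg1 at 0.59, Ero1l at -0.54 and Higd1a at -0.23 on the log2 scale. With chromosome medians removed, Ankrd37 was at 0.93 and Ndrg1 at 0.40, and neither passed. Under the same removal Ddit4 was at 0.38, Slc2a1 at -0.43, Adm at 1.84 and Pdk1 at 0.63, and each of these passed. Ankrd37 passed without AS replicate 1 and with no other sample left out, and Higd1a did not pass without WT replicate 2, WT replicate 3, AS replicate 2 or AS replicate 3.

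Of 32 genes tested that carry the VEGF receptor signal inside the cell, 7 were higher, 5 were lower and 20 did not pass, a share of calls near the 40.1% of all genes tested. The median absolute log2 fold change was 0.15, against 0.28 over all genes tested. Of the kinases of the MAP kinase cascade, Map2k2 was higher at 0.40 (edgeR adjusted p = 0.000198) and Map2k1 was lower, at -0.40 (edgeR adjusted p = 0.000307). Gipc1, which binds the tail of neuropilin 1, was at 0.27 (edgeR adjusted p = 0.00423), and Ptk2, the focal adhesion kinase, was at 0.30 (edgeR adjusted p = 0.00496). With chromosome medians removed, Map2k1 stayed at -0.39 and passed, whereas Map2k2 was at 0.092 and Ptk2 at 0.11 and did not pass, and Gipc1 flipped to -0.043. The other genes that were lower, named after their values were seen, were Shb, Pik3r1, Mapkapk2 and Cdc42, between -0.36 and -0.16 on the log2 scale. Each of these 4 calls was lost without AS replicate 2. Those of Pik3r1, Mapkapk2 and Cdc42 were also lost without AS replicate 3, those of Mapkapk2 and Cdc42 without WT replicate 2, that of Mapkapk2 without WT replicate 1, and that of Cdc42 without WT replicate 3 or AS replicate 1. With chromosome medians removed, Cdc42 flipped to 0.015.

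Among extracellular proteins that bind VEGF or oppose angiogenesis, 4 of 12 genes tested were higher, 1 was lower and 7 did not pass, again a share of calls near the 40.1% of all genes tested. Thbs1, which encodes the angiogenesis inhibitor thrombospondin 1, fell from 18279.9 ± 2348 CPM in WT to 10491 ± 634 CPM in AS podocytes (SD, n = 3 each; log2 fold change -0.80, edgeR adjusted p = 0.000371). Its relative Thbs2 was higher, at 1.45 ± 0.387 against 10.2 ± 1.57 CPM (SD, n = 3 each; log2 fold change 2.81, edgeR adjusted p = 8.44e-06). Col18a1, whose product contains endostatin, was at 674 ± 147 and 1194 ± 74.1 CPM (SD, n = 3 each; log2 fold change 0.82, edgeR adjusted p = 0.00129). Dcn, the proteoglycan decorin, was at 0.538 ± 0.399 and 2.35 ± 0.725 CPM (SD, n = 3 each; log2 fold change 2.13, edgeR adjusted p = 0.00513). Hspg2, the heparan sulfate proteoglycan perlecan, was also higher at 0.65 and was named after its value was seen. The median log2 fold change of this list was 0.16.

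**Figure D4:**
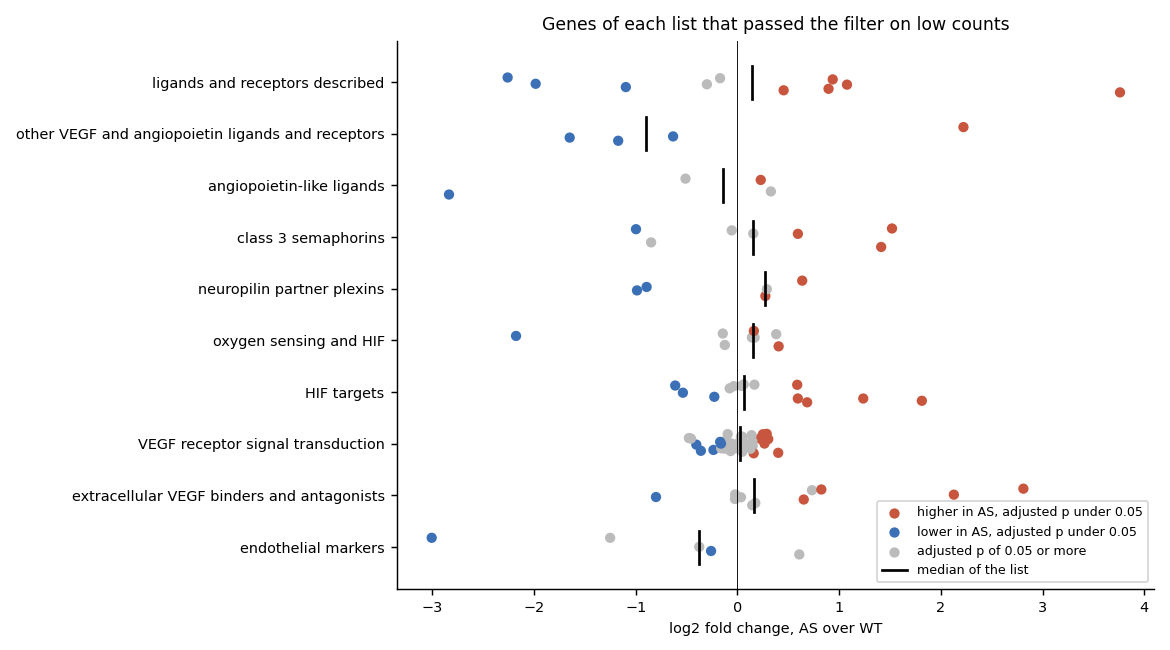
Log2 fold change of AS over WT (horizontal axis) of the tested genes of each list, 1 point per gene, red where higher and blue where lower in AS podocytes with an edgeR adjusted p below 0.05, grey otherwise, with the median of the list as a black line and points spread vertically at random within a list. The 10 ligands and receptors run from -2.26 to 3.76, and the 32 signal transduction genes from -0.48 to 0.40.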

How the data were processed

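RNA was extracted from 3 WT and 3 AS samples, and mRNA libraries were made from 100 ng with 15 cycles of PCR, per the labels. The values deposited by the authors are raw counts, that is whole numbers of reads on each gene. The submitters' processing notes name FastQC, Trim Galore, STAR, edgeR and the build mm39, while the sources used here do not give the counting tool, the annotation release or the strand setting. Without their version, 51880 of 57132 identifiers matched GENCODE M21 (GRCm38), which was used for symbols, chromosomes and exon lengths. Total counts lay between 45417221 and 54290968 per sample.

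The analysis used edgeR 4.0.16 in R 4.3.3. The 16263 genes that passed filterByExpr (minimum count 10, minimum total count 15) were scaled by TMM and compared by the two-sided quasi-likelihood test of edgeR, with genotype as the only term and Benjamini-Hochberg adjustment over all genes tested. The standard error (SE) was approximated as the size of the log2 fold change over the square root of F. RPKM are CPM per kilobase of merged exons. Ratios use log2 CPM with a prior count of 0.5 and an exact permutation test. Limits for 0 counts cover counting error only. The fit was tested on simulated data with means and dispersions taken from these libraries. Far fewer genes were changed there than were called here, so that test does not give the error rate of these calls.

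The 10 genes and the other lists were chosen with earlier results of these data known. Besides the 10 genes, the rule named the members of lists of up to 7 genes where they describe a ligand or receptor, at most 4 called genes with the smallest adjusted p of each other list, Col4a3 and the 3 genes most like Vegfa. Some of the genes so named are not reported here. Alternatives were DESeq2 size factors, library size only, no filter, a mean CPM of at least 1, DESeq2 1.42.0, limma 3.58.1 with voom (the study's own tool), a replicate block, each sample left out, removal by an offset of the chromosome median (genes with log2 CPM above 2), and a prior count of 2.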

Additional observations from a re-analysis of the deposited data

How the results depend on the processing

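The direction of the 10 genes was kept in all 139 values from the alternatives run, and 133 also kept their side of the threshold. Between 7 and 9 of the 10 genes passed under these alternatives, against 8, and the number over all genes was lowest without AS replicate 3, at 5120, and highest with the replicate block, at 7066, against 6517. Nrp1 lost its call with the chromosome median removed, Kdr in 4 fits with 1 sample left out, and Vegfa gained a call without WT replicate 1. With a mean CPM of at least 1, Kdr was not tested. The Angpt2 over Angpt1 log2 ratio differed between the lines by -3.24 with a prior count of 2, that of Nrp1 over Nrp2 by -0.50 (from -0.66 to -0.19 with each sample left out), and that of Vegfa over Vegfb by -1.05 (from -1.21 to -0.93). Without 1 sample the exact test cannot go below p = 0.20.

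Of 712 values of the other 51 genes that the rule named, 672 kept direction and call, 23 lost the call and 12 gained it. In 5 values the direction was reversed: Sema3d, which did not pass, ran from -0.18 to 0.10 with 1 sample left out, and with chromosome medians removed Hif1an was at -0.014, Gipc1 at -0.043 and Rpl32 at 0.097. These 3 genes lie on chromosomes with a median of 0.17, 0.31 and -0.22.

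The titles give both lines the same set numbers. Between same-numbered samples, the correlations of deviations from the line means were 0.112, 0.0820 and 0.0481, and every sample correlated best with its own number, a hint from the data, not the design. With the replicate block, 8 of the 10 genes passed. Kdr rests on 83 WT and 22 AS counts in all and Tek on 19 and 10, and Tie1 had 0 counts.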

Other observations

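The angiopoietin-like genes, whose products resemble angiopoietins but do not bind the Tek product, were read in the same libraries. Of 6 genes 4 were tested, of which 1 was higher and 1 lower in AS podocytes. Angptl2 was at 86.5 ± 2.82 CPM in the WT line and 101 ± 4.40 CPM in the AS line (SD, n = 3 each; log2 fold change 0.23, edgeR adjusted p = 0.00918). Angptl7 was at 0.390 ± 0.0156 and 0.0511 ± 0.0260 CPM (SD, n = 3 each; log2 fold change -2.84, edgeR adjusted p = 0.00211), from 56 WT and 8 AS counts in all. Angptl4, an inhibitor of lipoprotein lipase, was at 11.6 ± 2.77 and 14.5 ± 1.45 CPM, and Angptl6 at 1.07 ± 0.0950 and 0.756 ± 0.175 CPM (SD, n = 3 each). Neither passed the test (edgeR adjusted p = 0.147 and 0.178). Angptl1 had 2 WT and 6 AS counts in all.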
